A study of Homo sapiens with 12 samples.

Results

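The genes described here are vimentin (VIM), N-cadherin (CDH2) and 7 transcription factors of the epithelial-mesenchymal transition, ZEB1, ZEB2, SNAI1, SNAI2, TWIST1, TWIST2 and PRRX1. They were found by their symbols, and all 9 were present among the 54261 genes of the expression table. The cells were BON-1, a cell line from a human neuroendocrine tumour of the pancreas, either kept alone or recovered by flow cytometry from co-culture with cancer-associated fibroblasts (CAFs). There were 4 groups of 3 polyA RNA libraries, namely BON-1 alone and BON-1 from mixtures with BON-1:CAF ratios of 10:2, 10:4 and 10:6. The protocol describes sorting out of co-culture, and the sources used here do not say whether BON-1 grown alone also passed through a sorter, how pure the sort was or where the CAFs came from. The labels do not state that a group's libraries came from separate cultures, so p-values measure the spread between these libraries, which may be technical.

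Depth was between 12918760 and 21882537 assigned reads in BON-1 alone and between 11703624 and 15327524 in the co-cultures. The neuroendocrine identity of the cells was checked with 8 markers, whose FPKM (fragments scaled to gene length and library depth) summed to between 2584 and 2995 in every library, with TPH1 below 1 FPKM in all 4 groups. The 18 fibroblast markers summed to between 82.0 and 84.0 FPKM in BON-1 alone, 117.8 to 120.6 at 10:2, 198.1 to 204.5 at 10:4 and 280.4 to 284.3 at 10:6. In RNA from a population of cells, fewer cells of a type and less RNA per cell cannot be told apart.

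In the epithelial-mesenchymal transition an epithelial cell gives up its lateral junctions and takes on a migratory shape. SNAI1 and SNAI2 are zinc-finger repressors, ZEB1 and ZEB2 carry zinc fingers on both sides of a homeodomain, TWIST1 and TWIST2 are basic helix-loop-helix factors, and PRRX1 is a paired-type homeodomain protein of mesenchymal tissue. SNAI and ZEB proteins bind the E-box word CAGGTG in the promoters of junction genes such as CDH1, which encodes E-cadherin. VIM, an intermediate filament protein, and CDH2, the cadherin of neural and mesenchymal junctions, are the usual readouts of the mesenchymal state, and fibroblasts make both.

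The sequences below show the word that SNAI and ZEB factors read. They come from the pair of expressed junction genes with most copies among the epithelial genes listed and, for contrast, from VIM and CDH2. Each is the 250 bases upstream of an annotated start, 5′ to 3′ on the gene's strand, from RefSeq (GRCh38.p14), with CAGGTG or CACCTG in capitals. Both spell 1 word, read on either strand, and copies of it cannot overlap. CRB3, a polarity protein of tight junctions, lies on the plus strand of chr19:6464021-6464270 and holds 5 such words. CLDN7, a claudin of tight junctions, lies on the minus strand at chr17:7262479-7262728 and holds 4, while a second CLDN7 window at another annotated start (chr17:7263214-7263463) holds 0. The VIM window (chr10:17227991-17228240, plus strand) and the CDH2 window (chr18:28177131-28177380, minus strand) hold 0, as does a second CDH2 window (chr18:28036642-28036891).
CRB3: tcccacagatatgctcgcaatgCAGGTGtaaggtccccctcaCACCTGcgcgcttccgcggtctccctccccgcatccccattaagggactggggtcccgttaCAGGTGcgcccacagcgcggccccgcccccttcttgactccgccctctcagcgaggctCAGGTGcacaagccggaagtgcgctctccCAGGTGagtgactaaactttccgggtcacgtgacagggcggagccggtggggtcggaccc
CLDN7: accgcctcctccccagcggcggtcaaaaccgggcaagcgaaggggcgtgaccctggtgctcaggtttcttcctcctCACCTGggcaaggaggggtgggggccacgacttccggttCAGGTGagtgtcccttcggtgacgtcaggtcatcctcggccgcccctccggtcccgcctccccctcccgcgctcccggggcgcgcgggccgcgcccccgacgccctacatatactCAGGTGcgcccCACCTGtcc
VIM: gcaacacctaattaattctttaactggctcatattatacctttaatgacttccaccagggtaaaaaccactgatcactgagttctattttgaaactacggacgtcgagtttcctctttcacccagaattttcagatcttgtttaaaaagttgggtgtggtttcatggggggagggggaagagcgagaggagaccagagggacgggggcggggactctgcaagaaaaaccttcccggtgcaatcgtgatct
CDH2: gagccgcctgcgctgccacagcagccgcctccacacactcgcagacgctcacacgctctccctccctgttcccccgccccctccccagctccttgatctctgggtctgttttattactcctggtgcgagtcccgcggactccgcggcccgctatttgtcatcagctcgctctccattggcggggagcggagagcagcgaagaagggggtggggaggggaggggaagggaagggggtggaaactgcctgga

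Among 27305 genes with such a window, 20.6% held the word at least once and 3.08% at least 2 times. Some genes have several windows, and a gene was counted by the window with most words. Of the epithelial genes and their keepers, 12 of 22 had a window and 8 of those held the word, with 4 holding it at least 2 times (CRB3, CLDN7, PATJ and DSP). The windows of CLDN3, CLDN4, KRT8 and GRHL1 held 0 such words, as those of VIM and CDH2 did. Of the 9 genes described here 6 had a window, and ZEB1 was the one that held the word. A match is a description of these letters and not a site. In the libraries, CLDN7 averaged 107.9 ± 4.09 FPKM at 10:6 and 117.0 ± 4.99 FPKM in BON-1 alone, and CRB3 averaged 22.03 ± 2.02 FPKM at 10:6 and 25.2 ± 1.12 FPKM in BON-1 alone (SD, n = 3 each). The adjusted p was 0.051 for CLDN7 and 0.052 for CRB3 in limma, so neither passed the threshold of 0.05. With trends on length and GC content removed, neither was called as a fall. DSP and TJP1, which also held the word, were called as higher at 10:6, with values given below. The genes holding the word thus did not share 1 direction.

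BON-1 cells held much VIM RNA beside nearly none of ZEB2, TWIST1, TWIST2, PRRX1 or CDH2. In BON-1 alone VIM averaged 76.4 ± 1.17 FPKM (SD, n = 3), rank 1025 of 54261 genes, and CDH1 averaged 79.8 ± 1.61 FPKM. FPKM is a level per length, so the pair can be compared: the ratio of VIM to CDH1 was 1.02 ± 0.0432 at 10:4 and 0.969 ± 0.0247 at 10:6, against 0.957 ± 0.0244 in BON-1 alone. SNAI1 followed at 5.73 ± 0.331 FPKM and SNAI2 at 2.99 ± 0.384 FPKM. ZEB1 averaged 0.428 ± 0.0156 FPKM, CDH2 0.140 ± 0.0127 FPKM, ZEB2 0.0233 ± 0.0246 FPKM and PRRX1 0.0138 ± 0.0121 FPKM. ZEB2 and PRRX1 overlapped in this order across the 3 libraries, and the other neighbours from VIM down to ZEB2 did not. Within each co-culture ratio VIM, SNAI1 and SNAI2 were the 3 highest of the 9.

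**Figure D1:**
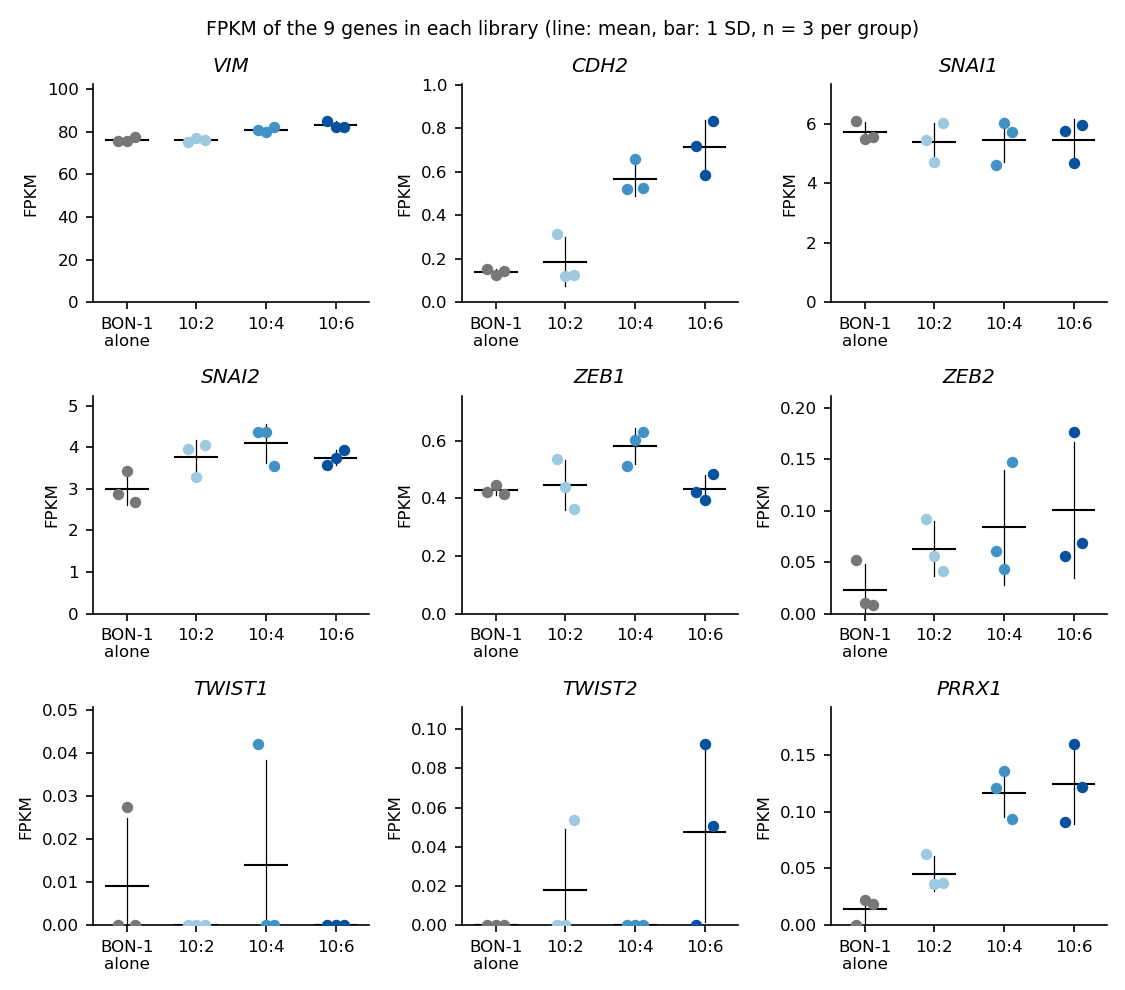
FPKM of the 9 genes (vertical axes, linear from 0, a separate scale for each gene) in BON-1 alone and in co-cultures at 10:2, 10:4 and 10:6; points are libraries, lines are means and bars 1 SD, cut off at 0. VIM stays between 75.3 and 85.3 FPKM, CDH2 is at or above 0.519 FPKM in all 6 libraries of 10:4 and 10:6 and at or below 0.315 FPKM in the other 6, and TWIST1 and TWIST2 are at 0 in most libraries.

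Genes with at least 1 FPKM in at least 3 libraries were tested, and VIM, SNAI1 and SNAI2 passed this filter while the other 6 did not. At 10:2 against BON-1 alone 0 of the 3 were called by limma, where 27.4% of the 13312 tested genes were called. Of the 3, 0 were called by limma-voom on the reads either (32.6% of all genes). An unadjusted p below 0.05 in limma was held by 1 of 3, SNAI2, beside 5264 of all 13312 tested genes. At 10:4 VIM and SNAI2 rose, where 45.4% of tested genes were called and 27.3% were called as higher. At 10:6 VIM and SNAI2 rose again, where 48.0% were called and 29.7% were called as higher. With 3 genes tested and shares this large, the counts say little about these genes as a group. The split of calls also depended on the scaling: 61.8% of the calls at 10:6 were rises as deposited, 49.6% after median-of-ratios scaling and 45.4% after removal of length and GC trends.

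VIM was slightly higher where more fibroblasts had been added. The 3 libraries held 75.8, 75.6 and 77.7 FPKM in BON-1 alone, 75.3, 77.0 and 76.1 FPKM at 10:2, 81.1, 79.9 and 82.3 FPKM at 10:4, and 85.3, 82.2 and 82.4 FPKM at 10:6. All 6 libraries at 10:4 and 10:6 lay above all 6 of the other groups, and BON-1 alone and 10:2 overlapped. Against BON-1 alone the log2 difference was 0.09 ± 0.03 at 10:4 (SE, limma adjusted p = 0.021) and 0.12 ± 0.03 at 10:6 (limma adjusted p = 0.0026). These correspond to mean levels 6.21% and 9.03% higher. At 10:2 the difference was -0.00 ± 0.03 (limma adjusted p = 0.91).

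Between ratios VIM was higher at 10:6 than at 10:2 by 0.13 ± 0.03 on the log2 scale (limma adjusted p = 0.019), where 6.97% of tested genes were called. It did not pass at 10:4 against 10:2 (limma adjusted p = 0.087), where 0 of the 3 genes and 2.88% of all were called, nor at 10:6 against 10:4 (limma adjusted p = 0.58), where 0 of the 3 and 0.331% were called. At an unadjusted limma p below 0.05 the count was 1 of 3 (VIM) for 10:4 against 10:2, beside 2872 of all 13312 tested genes. For 10:6 against 10:4 it was 0 of 3, beside 1769 of 13312. After adjustment limma-voom called 0 of 3 in both (7.85% and 2.07% of all genes). The longest VIM transcript has a GC content of 46.9%, just inside the lower edge of a bin of 620 genes with a median of 47.5%. Those genes had median log2 differences from BON-1 alone of 0.03 at 10:2, 0.02 at 10:4 and 0.06 at 10:6, and the 620 genes of the bin below, with a median GC content of 46.1%, had 0.09, 0.10 and 0.15. With trends on length and GC removed, the VIM difference was -0.09 ± 0.03 at 10:2 (SE, limma adjusted p = 0.070), -0.02 at 10:4 and -0.02 at 10:6 (limma adjusted p = 0.65 and 0.67), and none of the 3 passed. In limma-voom on genes with at least 10 reads and with trends removed, VIM fell at 10:2 by 0.11 ± 0.03 on the log2 scale (limma-voom adjusted p = 0.024), where 10.5% of genes were called. After the removal in limma 0 of the 3 genes were called at 10:2, where 11.5% of all were, 0 of the 3 at 10:4, where 23.3% of all were, and 0 of the 3 at 10:6, where 27.0% were. The call at 10:4 also ended without BON-1 alone replicate 1 (limma adjusted p = 0.067), without BON-1 alone replicate 2 (0.071) and without 10:4 replicate 3 (0.062). Median-of-ratios scaling ended the calls against BON-1 alone as well (limma adjusted p = 0.26 at 10:4 and 0.095 at 10:6), and a fit with no variance trend ended that at 10:4 (0.058). Over the 14 alternatives the adjusted p in limma or limma-voom ran from 0.018 to 0.65 at 10:4 and from 0.0021 to 0.67 at 10:6. The call at 10:6 against 10:2 ended without 10:2 replicate 1, 10:2 replicate 2 or 10:6 replicate 3 (limma adjusted p = 0.053, 0.052 and 0.058), and also with median-of-ratios scaling (0.061), no variance trend (0.057), the compared groups fitted alone (0.064) and trends removed (0.21).

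VIM lies at chr10:17228241-17237593 on the plus strand (GRCh38.p14), and its antisense transcript VIM-AS1 held between 0.146 and 0.820 FPKM. Among the 13311 other tested genes, those whose log2(FPKM + 1) followed VIM most closely over the 12 libraries were HLA-B, a class I histocompatibility antigen (Pearson r = 0.943), ITGA5, the fibronectin receptor subunit (r = 0.942), and COL6A2, a chain of collagen VI (r = 0.939). The libraries share their groups, so these values describe likeness only. The 14 fibroblast markers that could be tested had a median r of 0.891 with VIM, against 0.0656 over all tested genes.

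SNAI1, a direct repressor of CDH1 transcription, showed no difference that passed the test at any ratio. Its libraries held 6.11, 5.51 and 5.57 FPKM in BON-1 alone, 5.45, 4.72 and 6.02 FPKM at 10:2, 4.61, 6.04 and 5.74 FPKM at 10:4, and 5.76, 4.70 and 5.98 FPKM at 10:6. Every co-culture group overlapped BON-1 alone. The log2 difference from BON-1 alone was -0.06 ± 0.10 at 10:6 (SE, limma adjusted p = 0.67). In reads, 400 at 10:6 and 504 in BON-1 alone gave a rate ratio of 0.953 with an exact 95% interval of 0.834 to 1.09. The counts are thus compatible with a small change in either direction within this interval. Intervals and floors here cover counting error only. The genes most like SNAI1 over the 12 libraries were MKS1, a protein of the ciliary transition zone (r = 0.870), CECR6 (r = 0.858) and RAPGEF1, an exchange factor for RAP GTPases (r = 0.827). SNAI1 lies at chr20:49982980-49988886 on the plus strand (GRCh38.p14).

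SNAI2, the repressor also called SLUG, was higher at 10:4 and 10:6 in the values as deposited. Its libraries held 2.88, 3.42 and 2.68 FPKM in BON-1 alone, 3.96, 3.29 and 4.05 FPKM at 10:2, 4.36, 4.36 and 3.56 FPKM at 10:4, and 3.57, 3.74 and 3.93 FPKM at 10:6. The libraries at 10:4 and 10:6 lay above those of BON-1 alone, while 10:2 overlapped with BON-1 alone in 1 library. The log2 difference from BON-1 alone was 0.26 ± 0.09 at 10:2 (limma adjusted p = 0.058), 0.35 ± 0.09 at 10:4 (limma adjusted p = 0.0088) and 0.25 ± 0.09 at 10:6 (limma adjusted p = 0.040). The 3 co-cultures did not differ from each other by a difference that passed. The highest mean stood at 10:4, with 4.09 ± 0.461 FPKM, and not at 10:6, with 3.75 ± 0.179 FPKM.

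The longest SNAI2 transcript has a GC content of 41.4%, and genes with a median of 41.1% had a median log2 difference of 0.40 at 10:6 against BON-1 alone, above that of SNAI2 itself. With length and GC trends removed the SNAI2 difference was 0.07 at 10:4 and -0.03 at 10:6, neither passing (limma adjusted p = 0.58 and 0.84). At 10:6 the call ended when any of 5 libraries was left out, with limma adjusted p of 0.10 and 0.14 without BON-1 alone replicates 1 and 3, and 0.051, 0.084 and 0.12 without 10:6 replicates 1, 2 and 3. It also ended with limma-voom (0.069), median-of-ratios scaling (limma, 0.077), no filter (limma, 0.098) and a replicate block (limma, 0.062). At 10:2 a call was gained without BON-1 alone replicate 2 (limma adjusted p = 0.034) or without 10:2 replicate 2 (0.027). Over 14 alternatives the adjusted p in limma or limma-voom ran from 0.0043 to 0.58 at 10:4, from 0.018 to 0.84 at 10:6 and from 0.027 to 0.60 at 10:2. The genes most like SNAI2 over the 12 libraries were NCK1, an SH2 and SH3 adaptor protein (r = 0.930), MAP10, a microtubule-associated protein (r = 0.926), and KCTD6 (r = 0.923). The ratio of SNAI1 to SNAI2 was 1.35 ± 0.279 at 10:4 and 1.46 ± 0.185 at 10:6, against 1.94 ± 0.284 in BON-1 alone. SNAI2 lies at chr8:48917598-48921429 on the minus strand (GRCh38.p14).

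**Figure D2:**
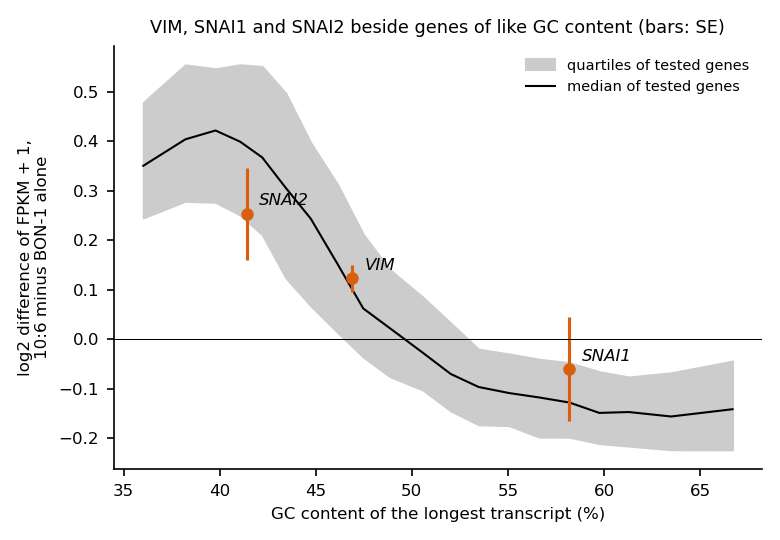
Log2 difference of FPKM + 1 at 10:6 minus BON-1 alone (vertical axis) against the GC content of the longest transcript in percent (horizontal axis); the line and band are the median and quartiles of tested genes in 20 bins, and points with bars are VIM, SNAI2 and SNAI1 with their SE. SNAI2 (0.25) lies below the median of its bin (0.40), and VIM (0.12) lies between the medians of its own bin (0.06) and of the next one down (0.15).

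CDH2 was higher at 10:4 and at 10:6, from a very low level. The 3 libraries of BON-1 alone held 11, 12 and 8 reads, those of 10:2 held 16, 7 and 7, those of 10:4 held 32, 36 and 30, and those of 10:6 held 42, 39 and 51. In FPKM this was 0.568 ± 0.0788 at 10:4 and 0.713 ± 0.124 at 10:6, against 0.140 ± 0.0127 in BON-1 alone (SD, n = 3 each). Every library at 10:4 and 10:6 lay above every library of BON-1 alone and of 10:2, while 10:2 straddled BON-1 alone, with 0.315, 0.119 and 0.122 FPKM at 10:2 against 0.151, 0.127 and 0.143 FPKM in BON-1 alone. Even at 10:6 CDH2 stayed under 1 FPKM, at a ratio of 0.00829 ± 0.00146 to CDH1, against 0.00176 ± 0.000125 in BON-1 alone.

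Since CDH2 was under the filter, it was tested in the fit of all 30723 genes above 0 in at least 1 library. Without the filter 4 of the 9 genes rose at 10:4 (VIM, SNAI2, CDH2 and PRRX1), where 18.0% of genes were called in either direction. At 10:6 3 of the 9 rose (VIM, CDH2 and PRRX1), where 19.1% were called. CDH2 had log2(FPKM + 1) differences of 0.46 ± 0.08 at 10:4 (limma adjusted p = 0.0020) and 0.58 ± 0.08 at 10:6 (limma adjusted p = 0.00044). The added 1 compresses such a low gene. In reads per depth, CDH2 was 4.08-fold higher at 10:4 than in BON-1 alone (exact 95% interval 2.70 to 6.32) and 5.11-fold higher at 10:6 (3.44 to 7.83), and at 10:2 the ratio was 1.30 (0.759 to 2.22). Over the 13 alternatives in limma or limma-voom both calls held, with adjusted p from 1.8e-05 to 0.011 at 10:4 and from 6.5e-07 to 0.0050 at 10:6.

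CDH2 was also higher at 10:6 than at 10:2, by 3.94-fold in reads (exact 95% interval 2.63 to 6.07; limma adjusted p = 0.012 without the filter, where 1.55% of genes were called). That call ended without 10:2 replicate 2 (limma adjusted p = 0.052) and with the compared groups fitted alone (0.13), and it held in the other 11 of 13 alternatives. At 10:4 against 10:2 the ratio in reads was 3.14 (2.07 to 4.90), and the limma adjusted p was 0.055 without the filter. It was 0.0029 in limma-voom on the reads, and 0.037 in limma without the filter when 10:2 replicate 1 was left out. This comparison passed in 4 of 13 alternatives, with adjusted p in limma or limma-voom from 0.0029 to 0.23. At 10:6 against 10:4 the ratio was 1.25 (0.958 to 1.65), which did not pass (limma adjusted p = 0.71). In limma-voom on genes with at least 10 reads, 31.7% of genes were called at 10:4 and 34.0% at 10:6 against BON-1 alone, and 20.2% and 22.8% after removal of the trends. After that removal the CDH2 difference from BON-1 alone was 1.69 ± 0.34 at 10:4 (limma-voom adjusted p = 0.00017) and 1.96 ± 0.33 at 10:6 (limma-voom adjusted p = 9.9e-06). CDH2 lies at chr18:27932879-28177130 on the minus strand (GRCh38.p14).

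PRRX1 followed the same order of groups at still lower counts. The libraries held 0, 2 and 1 reads in BON-1 alone, 3, 2 and 2 at 10:2, 7, 7 and 5 at 10:4, and 5, 10 and 7 at 10:6. The libraries at each co-culture ratio lay above those of BON-1 alone in FPKM, with a mean of 0.124 ± 0.0348 FPKM at 10:6 and 0.0138 ± 0.0121 FPKM in BON-1 alone. With 22 reads at 10:6 and 3 in BON-1 alone, the rate ratio was 8.81 with an exact 95% interval of 2.65 to 46.0, and at 10:4 it was 8.17 (2.40 to 43.1). The limma adjusted p without the filter was 0.0037 at 10:4 and 0.0024 at 10:6, and over 13 alternatives in limma or limma-voom it ran from 0.0029 to 0.016 and from 0.0014 to 0.021. At 10:2 the ratio was 3.13 (0.714 to 18.8), which did not pass (limma adjusted p = 0.41). Between the co-cultures no difference passed without the filter, and a call at 10:6 against 10:2 was gained without 10:6 replicate 1 (limma adjusted p = 0.040). PRRX1 lies at chr1:170662768-170739421 on the plus strand (GRCh38.p14).

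**Figure D3:**
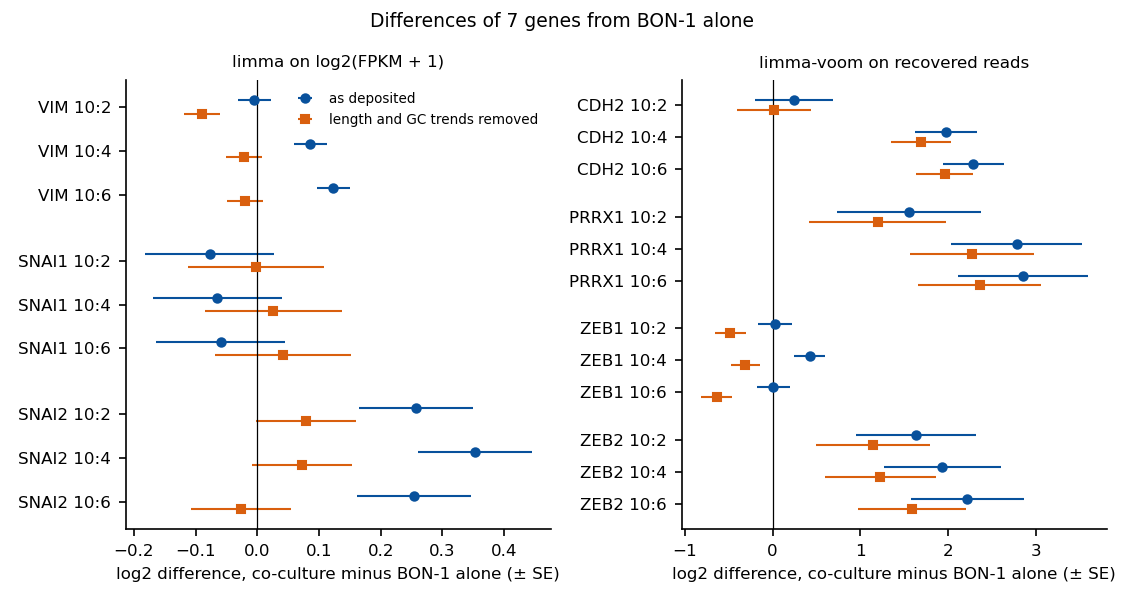
Log2 differences, co-culture minus BON-1 alone, with their SE (horizontal axes) for 7 genes at 10:2, 10:4 and 10:6; circles are the values as deposited and squares those with trends on length and GC content removed, from limma on log2(FPKM + 1) at left and limma-voom on recovered reads at right. For VIM and SNAI2 the squares at 10:4 and 10:6 lie between -0.03 and 0.07, while for CDH2 they stay at 1.69 and 1.96.

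The 2 ZEB genes differed in level, and neither was called in the fit without the filter. ZEB1, a repressor of epithelial genes that is held down by the miR-200 family, held between 0.364 and 0.630 FPKM over the 12 libraries. Its libraries held 0.421, 0.445 and 0.416 FPKM in BON-1 alone, 0.536, 0.439 and 0.364 FPKM at 10:2, 0.512, 0.604 and 0.630 FPKM at 10:4, and 0.423, 0.395 and 0.485 FPKM at 10:6. The 3 libraries at 10:4 lay above those of BON-1 alone, and 10:2 and 10:6 overlapped with it. The log2 difference at 10:4 was 0.15 ± 0.06 (limma adjusted p = 0.12) and at 10:6 was 0.01 ± 0.06 (limma adjusted p = 1.0). In limma-voom with length and GC trends removed the direction was turned, with -0.31 ± 0.17 at 10:4 (limma-voom adjusted p = 0.21) and -0.64 ± 0.18 at 10:6 (limma-voom adjusted p = 0.0060), where the longest ZEB1 transcript has 38.5% GC. The antisense gene ZEB1-AS1 held 2.37 to 3.50 FPKM, above ZEB1 in level per length, and since the strand setting of the count is not given, reads of the pair where they overlap cannot be told apart.

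ZEB2 held 8, 2 and 1 reads in BON-1 alone, 10, 7 and 5 at 10:2, 8, 5 and 18 at 10:4, and 7, 25 and 9 at 10:6. At 10:6 all 3 libraries lay above BON-1 alone in FPKM, at 0.101 ± 0.0661 FPKM against 0.0233 ± 0.0246 FPKM, with 1 library at 10:6 holding 25 of the 41 reads. The rate ratio was 4.48 with an exact 95% interval of 2.26 to 9.65. The limma adjusted p without the filter was 0.19 at 10:6 and 0.33 at 10:4. In limma-voom on the reads ZEB2 passed at 10:4 (adjusted p = 0.021) and at 10:6 (adjusted p = 0.0052), and with trends removed it passed at neither (adjusted p = 0.18 and 0.055 in limma-voom). ZEB1 lies at chr10:31318417-31529804 on the plus strand and ZEB2 at chr2:144384081-144520119 on the minus strand (GRCh38.p14).

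TWIST1 and TWIST2, the helix-loop-helix factors of mesoderm, were almost undetected. TWIST1 had 1 read in BON-1 alone replicate 2 and 1 in 10:4 replicate 1, and 0 in the other 10 libraries. TWIST2 had 1 read in 10:2 replicate 3, 2 in 10:6 replicate 2 and 1 in 10:6 replicate 3, and 0 in the other 9 libraries. A count of 0 over a group allows up to 3 reads, which for TWIST1 is 0.0419 FPKM at 10:6 and for TWIST2 is 0.0413 FPKM in BON-1 alone. All groups stood at or under 3 reads for both genes, so no fold is given. TWIST1 lies at chr7:19113047-19117636 on the minus strand and TWIST2 at chr2:238848085-238910534 on the plus strand (GRCh38.p14).

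As deposited, the markers of fibroblasts were higher at 10:4 and 10:6 than in BON-1 alone, as were CDH2, PRRX1 and VIM. Of 18 markers 14 could be tested. At 10:6 against BON-1 alone 13 rose and 0 fell, where 29.7% and 18.3% of all tested genes did. At 10:4 12 rose and 0 fell, where 3638 and 2408 of all 13312 tested genes did. With length and GC trends removed 12 of the 14 rose at 10:4, where 1337 of all 12401 tested genes rose. After the same removal 12 rose at 10:6, where 12.3% of all tested genes rose. The VIM difference was then -0.02 at both ratios and passed at neither (limma adjusted p = 0.65 and 0.67). COL1A1, a chain of collagen I, averaged 54.4 ± 0.794 FPKM at 10:6 and 9.22 ± 0.148 FPKM in BON-1 alone, SPARC, a matrix glycoprotein, 34.6 ± 0.726 FPKM at 10:6 and 5.05 ± 0.468 FPKM in BON-1 alone, and ACTA2, smooth muscle actin, 38.5 ± 0.723 FPKM at 10:6 and 5.99 ± 0.530 FPKM in BON-1 alone. No marker was at 0 in all libraries of a group, and DCN, LUM, FAP and POSTN stayed under 1 FPKM at 10:6. All co-cultures are set against the same 3 libraries of BON-1 alone. The excess of CDH2 over BON-1 alone was 74.7% as large at 10:4 as at 10:6, that of PRRX1 93.2% and that of VIM 68.7%, beside a median of 62.0% for the 13 fibroblast markers that rose (range 49.0 to 100.3%). At 10:2 the excess was 7.93% of that at 10:6 for CDH2, 28.6% for PRRX1 and -3.89% for VIM, beside a median of 18.5% for the markers (range 12.7 to 45.5%). The part of fibroblast RNA in the differences of CDH2, PRRX1 and VIM was not tested.

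**Figure D4:**
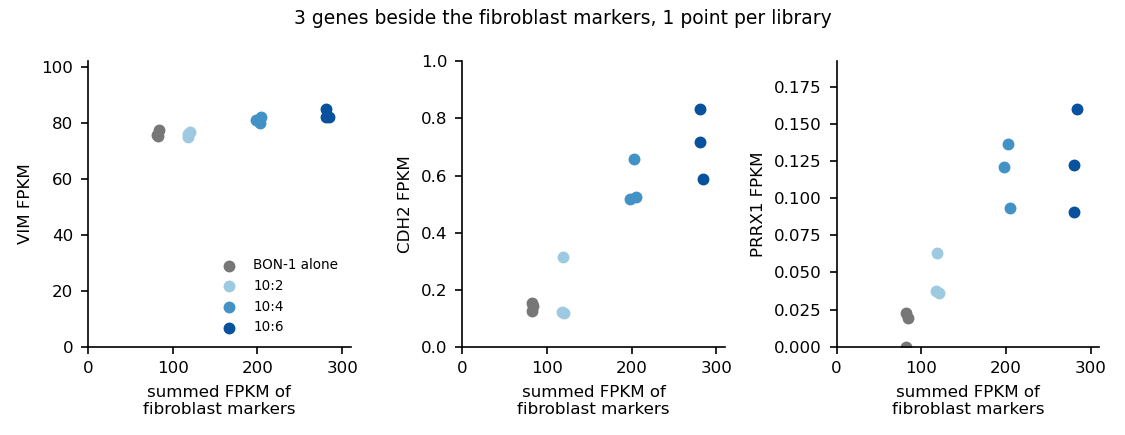
FPKM of VIM, CDH2 and PRRX1 (vertical axes, from 0) against the summed FPKM of 18 fibroblast markers (horizontal axes), with 1 point per library coloured by group. The marker sum separates the 4 groups, from 82.0 to 84.0 in BON-1 alone up to 280.4 to 284.3 at 10:6, and the CDH2 points of 10:4 and 10:6 lie above all others.

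The other factors of the transition were read in the same fit. Of 16 listed factors 11 could be tested, and at 10:6 against BON-1 alone 5 rose and 2 fell, where 29.7% of all tested genes rose and 18.3% fell, with a median log2 difference of 0.20, against 0.02 over all tested genes. HMGA2, a chromatin protein of embryonic cells, averaged 44.3 ± 0.816 FPKM at 10:6 and 27.7 ± 0.427 FPKM in BON-1 alone (limma adjusted p = 4.4e-06). SOX4, an HMG-box factor, averaged 48.3 ± 0.961 FPKM at 10:6 and 35.2 ± 0.782 FPKM in BON-1 alone (limma adjusted p = 0.00027), and ETS1 averaged 1.62 ± 0.0537 FPKM at 10:6 and 0.958 ± 0.0542 FPKM in BON-1 alone (limma adjusted p = 0.0012). With trends removed 3 of 11 rose and 0 fell, where 12.3% of all tested genes rose and 14.8% fell; HMGA2 (log2 difference 0.24) and SOX4 (0.41) passed and ETS1 (0.07) did not. SNAI3, the third SNAI gene, averaged 1.51 ± 0.330 FPKM at 10:6 and 1.49 ± 0.0948 FPKM in BON-1 alone.

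Epithelial genes and their keepers, several of which SNAI and ZEB factors repress, were read next. All 22 could be tested, and at 10:6 against BON-1 alone 10 of 22 rose and 5 fell, beside the 29.7% and 18.3% of all tested genes, with a median log2 difference of -0.01, against 0.02 over all tested genes. The junction genes DSP (desmoplakin), with 27.2 ± 0.681 FPKM at 10:6 and 16.1 ± 0.131 FPKM in BON-1 alone, and TJP1 (ZO-1), with 10.7 ± 0.0844 FPKM at 10:6 and 6.36 ± 0.283 FPKM in BON-1 alone, rose, as did the adhesion molecule EPCAM, with 368.4 ± 9.47 FPKM at 10:6 and 303.2 ± 3.02 FPKM in BON-1 alone. With trends removed 6 of 22 rose, DSP, TJP1 and EPCAM among them, and 1 fell, CLDN4, beside 12.3% and 14.8% of all tested genes. CDH1 itself averaged 86.0 ± 0.436 FPKM at 10:6 and 79.8 ± 1.61 FPKM in BON-1 alone, a log2 difference of 0.11 (limma adjusted p = 0.015), which was -0.00 with trends removed (limma adjusted p = 0.94).

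Effectors of the transition include matrix proteins and integrins. Of 20 listed 12 could be tested, and at 10:6 against BON-1 alone 9 of 12 rose and 1 fell, beside 29.7% and 18.3% of all tested genes, with a median log2 difference of 0.34, against 0.02 over all tested genes. After removal of trends 7 of 12 rose and 0 fell, beside 12.3% and 14.8% of all tested genes. FN1, fibronectin, averaged 42.0 ± 1.15 FPKM at 10:6 and 21.7 ± 0.589 FPKM in BON-1 alone, ITGB1, the integrin beta 1 chain, 80.0 ± 6.08 FPKM at 10:6 and 45.6 ± 2.10 FPKM in BON-1 alone, and TGFBI, a matrix protein induced by TGF-beta, 70.4 ± 1.76 FPKM at 10:6 and 48.4 ± 0.755 FPKM in BON-1 alone. All 3 passed before and after the removal (limma adjusted p at most 3.7e-05 after it). FN1 and MMP2 are also on the fibroblast list, whose summed level moved in the same order of groups, and its part in these differences was not tested.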

How the data were processed

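Expression was measured by polyA RNA sequencing in 12 libraries of 4 groups, taken from the sample titles. The authors deposited 1 table of FPKM values for 54261 genes; per the submitters' processing notes HISAT2, featureCounts and the build hg38 were used, while the sources used here give no version, role or strand setting for them. FPKM values were turned back into whole reads by finding each gene's length, and 99.97% of 267349 nonzero values came out whole within 1e-06 of a read. These recovered reads gave the depths. No library repeated another of its group (chi-square over its degrees of freedom 1.66 to 4.07).

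Values of log2(FPKM + 1) for the 13312 genes with at least 1 FPKM in at least 3 libraries were fitted in limma 3.58.1 (R 4.3.3) over all 12 libraries, with a variance trend, Benjamini-Hochberg adjustment over all genes tested in a comparison and a threshold of 0.05. A fold on this scale understates the change of low genes. Members under the filter were tested in the same fit over the 30723 genes above 0 in at least 1 library. In an alternative chosen after the data were seen, limma-voom was run on the 21753 genes with at least 10 recovered reads over the 12 libraries, with and without trends on length and GC content (loess, span 0.4). The same trends were removed from log2(FPKM + 1) for genes past the filter; 93.2% had both values (GENCODE 29). Rate ratios used recovered reads per depth with exact (Clopper-Pearson) 95% intervals. Likeness was Pearson's r over log2(FPKM + 1). The limma fit was tested on simulated data. These held no trends on length or GC content, so the simulation does not bear on calls that end when such trends are removed. Promoter windows and coordinates are from RefSeq GRCh38.p14.

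Other alternatives were a pseudocount of 0.1, median-of-ratios scaling, no variance trend, the compared groups fitted alone, a replicate block and leaving out each library. The members and lists were chosen with earlier results of these data known. Named genes were the 9 members, the 3 genes most like each tested member, and from each list the 3 genes of lowest p when 10:6 was compared with BON-1 alone, with CDH1, the genes holding the E-box word and other genes added after their values were seen.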

Additional observations from a re-analysis of the deposited data

How the results depend on the processing

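Differences of CDH2 and PRRX1 from BON-1 alone at 10:4 and 10:6 kept their direction and passed in every alternative run. Those of VIM and SNAI2 did not. With length and GC trends removed, 0 of the 3 tested members were called at 10:4, 0 at 10:6 and 0 at 10:6 against 10:2, and the genes called numbered 1430, 2887 and 3352 at 10:2, 10:4 and 10:6 against BON-1 alone, 103 at 10:4 against 10:2, 78 at 10:6 against 10:4 and 495 at 10:6 against 10:2 (3648, 6046, 6394, 384, 44 and 928 before removal). Rises made up 54.0, 46.3 and 45.4% of calls against BON-1 alone after removal, 57.6, 49.6 and 49.6% with median-of-ratios scaling, and 72.8, 60.2 and 61.8% as deposited. All members called in the following settings rose. With median-of-ratios scaling they were 1 at 10:4, 0 at 10:6 and 0 at 10:6 against 10:2 (3406, 3543 and 423 of 13312 genes rose). With no filter they were 4 at 10:4 and 2 at 10:6 against 10:2, VIM and CDH2 (3684 and 316 of 30723 genes rose). With no variance trend they were 1 at 10:4 and 0 at 10:6 against 10:2 (3700 and 419 of 13312 genes rose). Limma-voom called 1 at 10:6 (4243 of 13312 genes rose). The compared groups fitted alone gave 0 at 10:6 against 10:2 (199 of 12808 genes rose).

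Between the ratios (10:4 against 10:2, 10:6 against 10:4, 10:6 against 10:2) the genes called were 46, 18 and 298 with the groups alone, 1045, 276 and 1541 with limma-voom, and 179, 16 and 477 with no filter, and 584 for the last with no variance trend. Same-numbered libraries did not deviate together (18 pairs, r from -0.04 to 0.05), so the numbers do not pair them. The replicate block gave 175, 15 and 542 genes between the ratios. At 10:6 against BON-1 alone it called 1 member, where 3821 of 13312 genes rose, SNAI2 being lost (limma adjusted p = 0.062).

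Leaving out 1 library gave 2588 to 3489, 5070 to 5794 and 5405 to 6148 genes against BON-1 alone at 10:2, 10:4 and 10:6, and 45 to 378, 12 to 39 and 229 to 890 between the ratios. Members called ran from 0 to 1, 1 to 2 and 1 to 2 against BON-1 alone, and from 0 to 0, 0 to 0 and 0 to 1 between the ratios.

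Some differences changed sign. With trends removed VIM was -0.021 at 10:4 and -0.020 at 10:6, SNAI1 0.026 and 0.042, SNAI2 -0.027 at 10:6 and -0.0066 at 10:4 against 10:2, and ZEB1 -0.48, -0.31 and -0.64 at 10:2, 10:4 and 10:6 in limma-voom. Of these, ZEB1 at 10:6 was called as a fall (limma-voom adjusted p = 0.0060), where 22.8% of genes were called in either direction. Median-of-ratios scaling gave ZEB1 -0.013 at 10:6, and SNAI1 -0.0095 at 10:6 against 10:4 and -0.0064 against 10:2; limma-voom gave SNAI2 0.0016 at 10:6 against 10:2. Without single libraries the ranges that crossed 0 were, at 10:2 against BON-1 alone, -0.013 to 0.0075 for VIM, -0.025 to 0.092 for CDH2, -0.027 to 0.059 for ZEB1 and -0.15 to 0.00086 for SNAI1; at 10:4, -0.13 to 0.034 for SNAI1; and at 10:6, -0.019 to 0.026 for ZEB1 and -0.12 to 0.030 for SNAI1. At 10:4 against 10:2 they were -0.015 to 0.054 for ZEB2 and -0.066 to 0.11 for SNAI1; at 10:6 against 10:4, -0.027 to 0.064 for ZEB2, -0.093 to 0.095 for SNAI1 and -0.014 to 0.031 for PRRX1; and at 10:6 against 10:2, -0.053 to 0.033 for ZEB1, -0.00051 to 0.077 for ZEB2, -0.061 to 0.11 for SNAI1 and -0.077 to 0.040 for SNAI2. Apart from the trends, the cause was not tested. Trends were not removed from log2(FPKM + 1) of members under the filter, where limma-voom took its place. Depth limits TWIST1, TWIST2, PRRX1 and ZEB2, which held 2, 4, 51 and 105 reads in all.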

Other observations

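The relatives of the 9 genes gave further values at 10:6 against BON-1 alone, where 29.7% of all tested genes rose and 18.3% fell as deposited, and 12.3% and 14.8% with length and GC trends removed. Of 12 intermediate filament genes 8 could be tested, of which 2 rose and 2 fell: the lamin LMNB1 averaged 82.1 ± 1.22 FPKM at 10:6 and 65.9 ± 1.34 FPKM in BON-1 alone (limma adjusted p = 1.1e-05), SYNM, synemin, 6.23 ± 0.205 FPKM at 10:6 and 5.08 ± 0.144 FPKM in BON-1 alone (limma adjusted p = 0.0032), and LMNB2 103.3 ± 1.52 FPKM at 10:6 and 118.0 ± 1.01 FPKM in BON-1 alone (limma adjusted p = 0.00094). The calls of LMNB1 and SYNM held with length and GC trends removed and that of LMNB2 did not. Of 13 cadherins and catenins 7 could be tested, of which 5 rose, CTNNB1 (beta-catenin) and CDH6 among them, and 2 fell, JUP (plakoglobin) among them; with trends removed 0 rose and 0 fell. CTNNB1 averaged 131.0 ± 1.18 FPKM at 10:6 and 112.2 ± 1.17 FPKM in BON-1 alone, CDH6 1.26 ± 0.0861 FPKM at 10:6 and 0.769 ± 0.0522 FPKM in BON-1 alone, and JUP 110.3 ± 1.17 FPKM at 10:6 and 127.2 ± 2.00 FPKM in BON-1 alone. At 10:4 with trends removed 0 of the 7 rose and 4 fell, where 23.3% of all tested genes were called in either direction. The mesenchymal cadherins CDH11 and CDH13 were under the filter, as CDH2 was: CDH11 averaged 0.511 FPKM at 10:6 and 0.0650 FPKM in BON-1 alone, and CDH13 0.418 FPKM at 10:6 and 0.0395 FPKM in BON-1 alone. Both were named after their values were seen, and no test of them is given.

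Of 12 genes of the transforming growth factor signal 10 could be tested, and 5 rose and 1 fell, against 2 and 1 with trends removed. The receptor TGFBR3 averaged 3.70 ± 0.185 FPKM at 10:6 and 2.16 ± 0.219 FPKM in BON-1 alone and passed in both (limma adjusted p = 7.5e-05 and 0.0080), while TGFBR2, with 33.2 ± 0.455 FPKM at 10:6 and 28.7 ± 0.982 FPKM in BON-1 alone, and SMAD2, with 2.56 ± 0.143 FPKM at 10:6 and 1.65 ± 0.116 FPKM in BON-1 alone, passed only without removal. Of 14 partners and turnover factors of SNAI and ZEB proteins 7 rose and 3 fell as deposited (48.0% of all tested genes were called), and 0 rose and 4 fell with trends removed (27.0% were called). HDAC2, a histone deacetylase, averaged 17.3 ± 1.64 FPKM at 10:6 and 11.6 ± 0.552 FPKM in BON-1 alone, EZH2, a histone methyltransferase, 14.9 ± 0.175 FPKM at 10:6 and 11.1 ± 0.533 FPKM in BON-1 alone, and USP7, a deubiquitinase, 41.3 ± 1.17 FPKM at 10:6 and 32.4 ± 0.864 FPKM in BON-1 alone; all 3 rose, and none of the 3 passed with trends removed. Of the neuroendocrine markers 7 could be tested, of which 3 rose and 4 fell; the granins SCG2, with 1401 ± 7.84 FPKM at 10:6 and 746.7 ± 5.35 FPKM in BON-1 alone, and CHGA, with 975.1 ± 39.2 FPKM at 10:6 and 1347 ± 25.9 FPKM in BON-1 alone, moved in opposite directions. The 8 leukocyte and endothelial markers summed to between 34.9 and 39.8 FPKM in every library, with CD3E at 0 in all 4 groups. Of the genes overlapping ZEB1, VIM and ZEB2, ZEB1-AS1 could be tested. It was called as higher at 10:4, where the ZEB1 libraries also lay above BON-1 alone, with 3.04 ± 0.402 FPKM at 10:4 and 2.46 ± 0.144 FPKM in BON-1 alone (log2 difference 0.22, limma adjusted p = 0.045), and not at 10:2 or 10:6 (limma adjusted p = 0.31 and 0.26). With trends removed the difference at 10:4 was 0.01 (limma adjusted p = 0.97).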
